A study of Mus musculus with 6 samples.

Results

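The genes described here were *Nr4a1*, *Nr4a2* and *Nr4a3*, which encode the NR4A orphan nuclear receptors, and *Creb1*, *Crem*, *Sik1*, *Crtc1*, *Crtc2* and *Crtc3*, which encode the transcription factor CREB, its relative CREM, a kinase and the CREB coactivators of the CRTC family. They were taken by gene symbol, through the Ensembl identifiers, from a count table of 47069 genes. All 9 were found, and all 9 passed the filter on low counts, as did 14736 genes in all.

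CREB binds the cAMP response element (CRE) in the promoters of early-response genes and is activated by phosphorylation, by protein kinase A and by kinases downstream of calcium and ERK. CRTC proteins bind CREB in the nucleus, and salt-inducible kinases (SIK) phosphorylate CRTC proteins and keep them in the cytoplasm. *Nr4a1*, *Nr4a2*, *Nr4a3*, *Crem* and *Sik1* are themselves known CREB targets, and NR4A receptors are rapidly induced by gonadotropin-releasing hormone (GnRH) in gonadotropes, the pituitary cells that make luteinizing and follicle-stimulating hormone.

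LβT2 is an immortalized mouse gonadotrope line, here at passage 14 in DMEM with 10% fetal bovine serum. All cells received 2 nM GnRH over 40 min and were trypsinized and pelleted. In 3 fresh libraries the cells were lysed at once in guanidium thiocyanate buffer. In 3 RNA-Best libraries they were first kept at 4 °C for 4 days or more in RNA-Best, a proprietary preservation reagent. Libraries of untreated cells were not analysed here, so induction by GnRH could not be measured, and the comparison asks how preservation alters the transcript levels of GnRH-treated cells. Libraries were made with an mRNA kit and sequenced as single reads. The sources used here do not name separate cultures for the libraries of a group, so p-values measure the spread between these libraries, which may be technical.

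The fresh libraries held 14477304 to 47438746 counts and the RNA-Best libraries 4909418 to 11999363, so that every fresh library was deeper. Preservation, handling and depth cannot be told apart as sources of a difference. Levels are given as CPM, the count of a gene scaled to a fixed library total. The limit set by a count of 0 ran from 0.0632 CPM at the greatest depth to 0.611 CPM at the least, with counting error alone taken into account. The gonadotrope label was checked against 6 markers, of which *Gnrhr*, *Cga*, *Lhb*, *Nr5a1* and *Pitx1* were present and *Fshb* had 0 counts. Their summed level was 3051 to 3094 CPM in fresh and 2539 to 2610.5 CPM in RNA-Best libraries, but the markers differed in direction, with log2 fold changes of -0.36 for *Cga*, -0.21 for *Nr5a1*, -0.22 for *Pitx1*, 0.43 for *Gnrhr* and 0.03 for *Lhb*, which did not pass. The 10 markers of other pituitary cells summed to 14.7 to 17.4 CPM in fresh and 12.4 to 16.3 CPM in RNA-Best libraries, with *Prl*, *Pou1f1* and *Sox2* at 0 in all. Of these markers, 2 passed the filter. *Tshb*, a thyrotrope marker, was higher in RNA-Best by 0.91 on the log2 scale (adjusted p = 0.00350 from edgeR). The other, *Crhr1*, had -0.14 and was not called (adjusted p = 0.189 from edgeR). The part of marker levels and depth in the differences below was not tested, apart from the thinning of all libraries to one depth.

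Upstream sequences of the 3 receptor genes are shown because all of them hold the CRE core motif several times. They are from RefSeq on GRCm38.p6, 5′ to 3′ on the strand of the gene, and capitals mark TGACG or its reverse complement CGTCA.
Nr4a1 (chr15:101266596-101266845, plus strand): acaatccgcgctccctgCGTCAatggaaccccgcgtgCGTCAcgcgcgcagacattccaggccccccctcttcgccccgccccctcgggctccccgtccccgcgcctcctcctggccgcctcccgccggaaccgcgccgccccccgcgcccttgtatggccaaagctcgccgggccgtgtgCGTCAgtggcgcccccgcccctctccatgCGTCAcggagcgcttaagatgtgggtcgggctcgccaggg
Nr4a2 (chr2:57124004-57124253, minus strand): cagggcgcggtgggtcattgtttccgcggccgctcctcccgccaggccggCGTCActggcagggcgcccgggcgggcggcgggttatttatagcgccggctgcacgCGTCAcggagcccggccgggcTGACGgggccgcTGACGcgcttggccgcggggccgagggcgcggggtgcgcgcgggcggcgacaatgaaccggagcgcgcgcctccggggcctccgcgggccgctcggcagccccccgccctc
Nr4a3 (chr4:48045055-48045152, plus strand): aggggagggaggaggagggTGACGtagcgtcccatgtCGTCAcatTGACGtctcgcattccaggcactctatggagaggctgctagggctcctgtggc

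Each of these genes had 4 matches to TGACG, on either strand, in the 250 bases before the RefSeq start. In *Nr4a1* they began 233, 213, 69 and 40 bases before it, and in *Nr4a2* 200, 144, 123 and 111 bases. In *Nr4a3* they began 231, 213, 205 and 147 bases before the start, and the match nearest to it is not shown because it lies in the annotated first exon of another transcript. The window of *Nr4a1* lies inside the annotated gene, upstream of the RefSeq start and in an intron of a longer transcript. Of 32851 RefSeq windows of this length, 17.8% held at least 1 match and 0.137%, or 45 windows, at least 4. These 45 windows belonged to 44 of 27025 genes. The 3 windows are rich in G and C, at 74.4%, 80.0% and 63.6%, and among the 9178 windows with at least 60% the share with 4 matches was 0.370%. The longer palindrome TGACGTCA, which overlaps the motif on both strands, was in none of the 3 windows and in 1.55% of all windows. Sequences were used for 6 of the 9 genes, without *Crem*, *Sik1* and *Crtc2*, and *Creb1*, *Crtc1* and *Crtc3* had 0 matches of either kind. These matches are letters in a window and not evidence of CREB binding in these cells.

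The receptors and CREB partners differed between preserved and fresh cells by little. By the quasi-likelihood test of edgeR (Benjamini-Hochberg adjusted p under 0.05 among all genes tested), 6 of the 9 genes differed, 5 of them higher in RNA-Best (*Nr4a2*, *Nr4a3*, *Creb1*, *Sik1* and *Crtc1*) and 1 lower (*Nr4a1*). When exonic length was taken into account, as described below, *Creb1* was no longer called and *Crtc1* was called lower. Of all genes tested, 50.8% differed, 26.0% higher and 24.8% lower, so that the share of the 9 genes, 66.7%, is read against that. The median log2 fold change, RNA-Best over fresh, was 0.13 over the 9 genes and -0.01 over all genes tested. With exonic length taken into account, 1 of the 9 genes was called higher and 3 lower. Every one of the 9 had an absolute log2 fold change under 0.5. CPM values of the groups did not overlap in 5 of the 9 genes, against 57.5% of all genes tested. In bulk RNA, fewer cells that express a gene and less RNA per cell cannot be told apart.

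**Figure D1:**
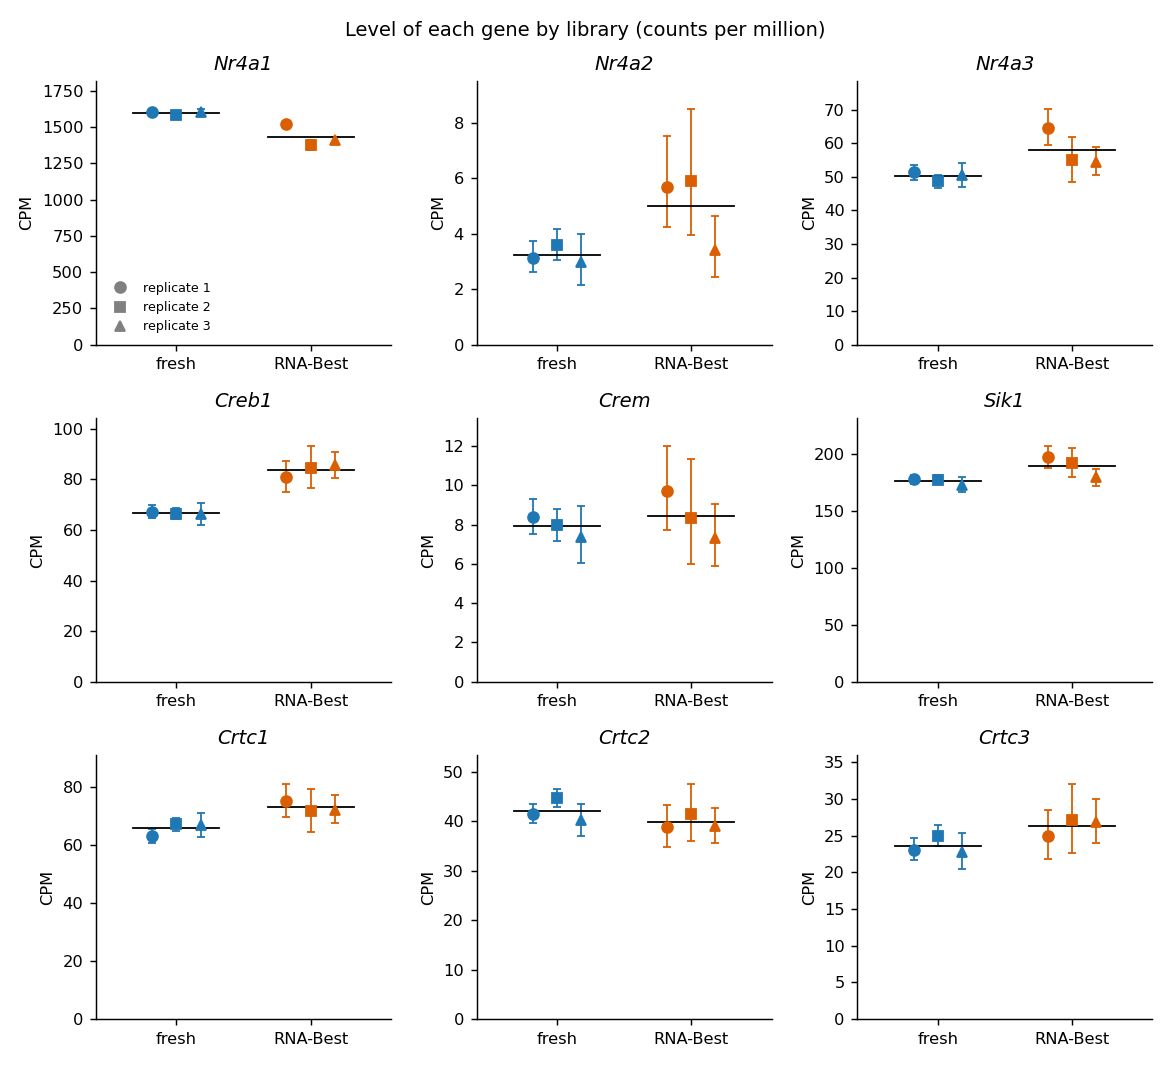
Level of each of the 9 genes in CPM (one panel per gene, own vertical axis), as points for the 3 fresh and 3 RNA-Best libraries, with the group mean as a line and exact 95% Poisson intervals, which cover counting error only, as bars. *Nr4a1* lies lower in every RNA-Best library, *Creb1* higher in every one, and the points of *Nr4a2*, *Crem*, *Crtc2* and *Crtc3* overlap between groups.

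*Nr4a1* encodes the receptor also called Nur77, which binds DNA as a monomer or dimer without a known ligand. It lies on chromosome 15 from 101254269 to 101274795 (GRCm38, plus strand), with 3509 bases of exon. Its level was 1602, 1584 and 1602 CPM in the fresh and 1518, 1376 and 1410.2 CPM in the RNA-Best libraries. All RNA-Best values were below all fresh ones, and RNA-Best replicate 1 was nearest to the fresh group. The means were 1596 ± 10.5 CPM (SD, n = 3) and 1435 ± 74.5 CPM (SD, n = 3), a log2 fold change of -0.17 (standard error 0.03, 95% interval -0.22 to -0.11, adjusted p = 9.01e-06 from edgeR). *Nr4a1* was lower by 10.9% in RNA-Best, and it remained lower under each alternative tried, with a call in 16 of 17. The difference was smallest with an offset for GC content (-0.08, adjusted p = 0.00952 from edgeR). Its spread in the RNA-Best group, a coefficient of variation of 5.19%, was above the 90th percentile of 4.04% of 167 genes at 500 to 5000 CPM, while its fresh spread was 0.656% against a median of 2.05%.

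*Nr4a2* encodes Nurr1, a receptor best known from dopamine neurons. It lies on chromosome 2 from 57106830 to 57124003 (minus strand), with 4059 bases of exon. The fresh libraries had 3.13, 3.58 and 2.97 CPM and the RNA-Best libraries 5.70, 5.91 and 3.42 CPM. RNA-Best replicates 1 and 2 lay above every fresh library, and replicate 3 lay within the fresh range. The counts behind these values were 127, 170 and 43 in fresh and 50, 29 and 41 in RNA-Best libraries, so counting error alone was 7.67% to 18.6%. The means were 3.23 ± 0.318 CPM (SD, n = 3) and 5.01 ± 1.38 CPM (SD, n = 3), a log2 fold change of 0.48 (standard error 0.17, 95% interval 0.15 to 0.82, adjusted p = 0.0147 from edgeR). The call of *Nr4a2* rested on few counts. It was lost without RNA-Best replicate 1 (0.31, adjusted p = 0.223 from edgeR) or replicate 2 (0.39, adjusted p = 0.0821 from edgeR), and without replicate 3 the log2 fold change was 0.79. It was also lost, at 0.54 in both, with DESeq2's Wald test (adjusted p = 0.0612) and after thinning (adjusted p = 0.0884 from edgeR).

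*Nr4a3* encodes NOR1, the third receptor of the family. It lies on chromosome 4 from 48045153 to 48086447 (plus strand), with 5987 bases of exon. Fresh libraries had 51.4, 48.7 and 50.5 CPM and RNA-Best libraries 64.6, 55.0 and 54.6 CPM. The groups did not overlap, and RNA-Best replicate 1 stood above both others. The means were 50.2 ± 1.41 CPM (SD, n = 3) and 58.1 ± 5.68 CPM (SD, n = 3), a log2 fold change of 0.20 (standard error 0.05, 95% interval 0.10 to 0.31, adjusted p = 0.00135 from edgeR). Without RNA-Best replicate 1 it was 0.12 and *Nr4a3* did not pass (adjusted p = 0.0977 from edgeR). Nor did it pass with an offset for exonic length (0.10, adjusted p = 0.136 from edgeR), as described below.

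Per length of exon, *Nr4a1* made up nearly all of the family's transcripts. Its share of the summed level per kilobase of *Nr4a1*, *Nr4a2* and *Nr4a3* was 98.0% in each fresh library and 97.3%, 97.4% and 97.6% in the RNA-Best libraries. The share of *Nr4a3* was 1.81% ± 0.0391 (SD, n = 3) among fresh libraries and 2.31% ± 0.109 (SD, n = 3) among RNA-Best libraries, without overlap. That of *Nr4a2* was 0.172% ± 0.0180 (SD, n = 3) and 0.294% ± 0.0808 (SD, n = 3). The ratio of *Nr4a1* to *Nr4a3* per kilobase was 54.3 ± 1.19 (SD, n = 3) before and 42.3 ± 2.03 (SD, n = 3) after preservation. The direction of these shares follows from the lower *Nr4a1* and higher *Nr4a3* levels, and no test was made of them.

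*Creb1* encodes CREB itself. It lies on chromosome 1 from 64532645 to 64604548 (plus strand), with 13742 bases of exon, the longest of the 9 genes. Fresh libraries had 67.3, 66.5 and 66.3 CPM and RNA-Best libraries 81.0, 84.6 and 85.6 CPM. The groups stood well apart, and the values within each group lay close together. The means were 66.7 ± 0.494 CPM (SD, n = 3) and 83.7 ± 2.39 CPM (SD, n = 3), a log2 fold change of 0.31 (standard error 0.04, 95% interval 0.23 to 0.40, adjusted p = 4.82e-08 from edgeR), or 24.3% higher in RNA-Best. With an offset for exonic length it was -0.03 (adjusted p = 0.548 from edgeR), as described below, whereas a GC offset gave 0.14 (adjusted p = 0.00329 from edgeR).

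*Crem* encodes both activators and the repressor ICER, which is made from an internal promoter that counts per gene do not separate. It lies on chromosome 18 from 3266048 to 3337748 (minus strand), with 5895 bases of exon. Fresh libraries had 8.38, 7.98 and 7.39 CPM and RNA-Best libraries 9.69, 8.35 and 7.33 CPM. The values of the groups were interleaved, and the means were 7.92 ± 0.495 CPM (SD, n = 3) and 8.46 ± 1.18 CPM (SD, n = 3). The log2 fold change of 0.04 (standard error 0.11, 95% interval -0.19 to 0.26) did not pass (adjusted p = 0.812 from edgeR), and the data leave room for a change within this interval. *Crem* shares exonic positions with *Gm6225* on the other strand, which had 5 to 49 counts in a library, and the strand setting of the counting is not given in the sources used here.

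*Sik1* encodes the salt-inducible kinase whose own transcript is raised by cAMP. It lies on chromosome 17 from 31844250 to 31855804 (minus strand), with 5133 bases of exon. Fresh libraries had 177, 177 and 173 CPM and RNA-Best libraries 197, 192 and 179 CPM. Every RNA-Best value was above every fresh one, replicate 3 by little. The means were 176 ± 2.54 CPM (SD, n = 3) and 189 ± 9.11 CPM (SD, n = 3), a log2 fold change of 0.08 (standard error 0.03, 95% interval 0.01 to 0.15, adjusted p = 0.0392 from edgeR). *Sik1* passed in 6 of 17 alternatives, fewer than any other gene called here. Its log2 fold change was 0.05 (adjusted p = 0.316 from edgeR) when RNA-Best replicate 1 was left out, 0.13 (adjusted p = 0.00481 from edgeR) when replicate 3 was, and 0.02 (adjusted p = 0.715 from edgeR) under the length offset.

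The CRTC genes were compared next. *Crtc1* (chromosome 8, 70382355 to 70439579, minus strand, 11182 bases of exon) had 63.3, 67.2 and 66.9 CPM in fresh and 75.3, 71.7 and 72.3 CPM in RNA-Best libraries. The groups did not overlap, and the log2 fold change was 0.14 (standard error 0.04, 95% interval 0.06 to 0.23, adjusted p = 0.00568 from edgeR). With the length offset it turned to -0.14. *Crtc1* did not pass without RNA-Best replicate 1 (adjusted p = 0.0537 from edgeR). Its adjusted p was also 0.0659 in the Wald test of DESeq2, 0.106 in edgeR when low counts were kept (log2 fold change 0.10) and 0.0804 in edgeR after thinning. *Crtc2*, the coactivator best known from the fasted liver, had 41.6, 44.7 and 40.2 CPM in fresh and 38.9, 41.6 and 39.0 CPM in RNA-Best libraries (chromosome 3, 90254163 to 90264125, plus strand, 4094 bases of exon). Its groups overlapped, and the log2 fold change of -0.12 (standard error 0.06, 95% interval -0.24 to -0.01) did not pass (adjusted p = 0.0587 from edgeR). *Crtc2* passed without fresh replicate 1 (adjusted p = 0.0355 from edgeR) or fresh replicate 3 (adjusted p = 0.0296 from edgeR), whereas without fresh replicate 2 it was -0.07 (adjusted p = 0.303 from edgeR). When low counts were kept it was -0.17 and passed (adjusted p = 0.00898 from edgeR). *Crtc3* (chromosome 7, 80586627 to 80688877, minus strand, 9850 bases of exon) had 23.1, 25.0 and 22.8 CPM in fresh and 25.0, 27.1 and 26.9 CPM in RNA-Best libraries. The fresh and RNA-Best values of *Crtc3* met at 25.0 CPM, and its log2 fold change of 0.13 (standard error 0.07, 95% interval -0.01 to 0.26) did not pass (adjusted p = 0.115 from edgeR), but did without fresh replicate 2 (adjusted p = 0.0389 from edgeR) and, at 0.21, under the GC offset (adjusted p = 0.00883 from edgeR).

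**Figure D2:**
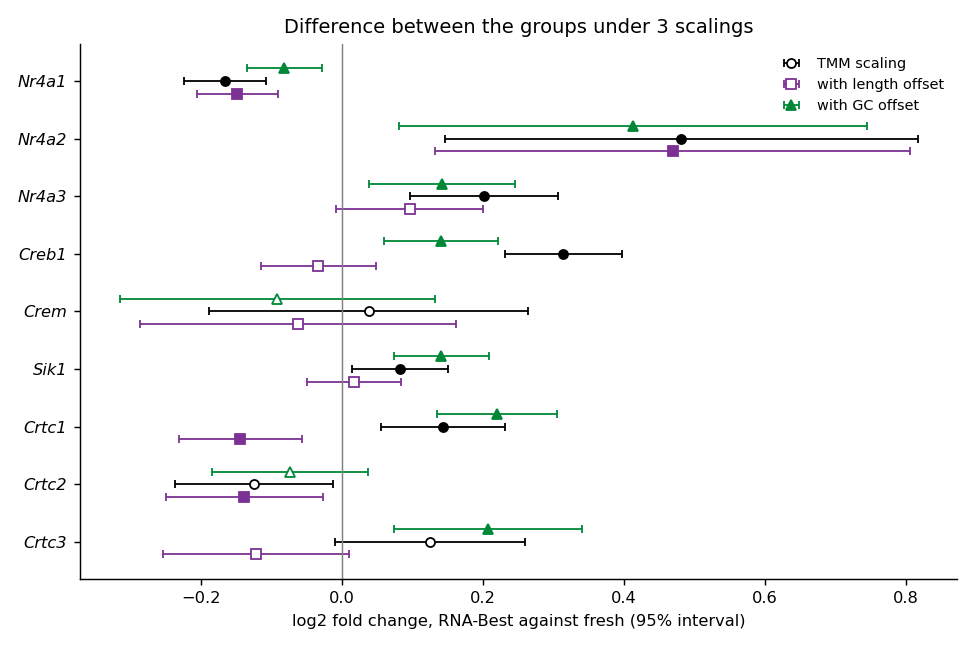
Log2 fold change of the 9 genes, RNA-Best over fresh (horizontal axis), with 95% intervals from edgeR, with TMM scaling alone and with offsets for exonic length and GC content (filled symbols, adjusted p under 0.05). *Nr4a1* lies below 0 and *Nr4a2* and *Nr4a3* above 0 in all 3 fits, whereas *Creb1*, *Crtc1* and *Crtc3* lie above 0 as fitted and below 0 with the length offset.

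The log2 fold change rose with exonic length across all genes tested, which touches the longest of these genes most. Its median was -0.20 in 3404 genes of up to 2 kb, -0.10 in 4067 genes of 2 to 4 kb, 0.03 in 3148 of 4 to 6 kb, 0.16 in 2814 of 6 to 10 kb and 0.32 in 1244 over 10 kb. *Creb1*, at 0.31, lay at the median of its length class, and *Crtc1*, at 0.14, below it. Length here is the union of exons, whereas the longest transcript of *Creb1* has 8364 bases and that of *Crtc3* 5115 bases. An offset with transcript length was not fitted. *Nr4a1*, at -0.17, lay below the median of the 2 to 4 kb class, and *Nr4a2* and *Nr4a3*, at 0.48 and 0.20, above that of the 4 to 6 kb class. With a length offset in each library, 4 of the 9 genes passed, against 40.8% of all genes tested. *Nr4a2* was higher (0.47, adjusted p = 0.0227 from edgeR), and *Nr4a1* (-0.15), *Crtc1* (-0.14, adjusted p = 0.00693 from edgeR) and *Crtc2* (-0.14, adjusted p = 0.0427 from edgeR) were lower. *Nr4a3* was 0.10 (adjusted p = 0.136 from edgeR). Only *Nr4a1* and *Nr4a2*, of the 6 genes that passed as fitted, passed in the same direction with the length offset. With a GC offset 7 genes passed, against 48.2% of all genes tested, and the one lower in RNA-Best was *Nr4a1* (-0.08, adjusted p = 0.00952 from edgeR).

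**Figure D3:**
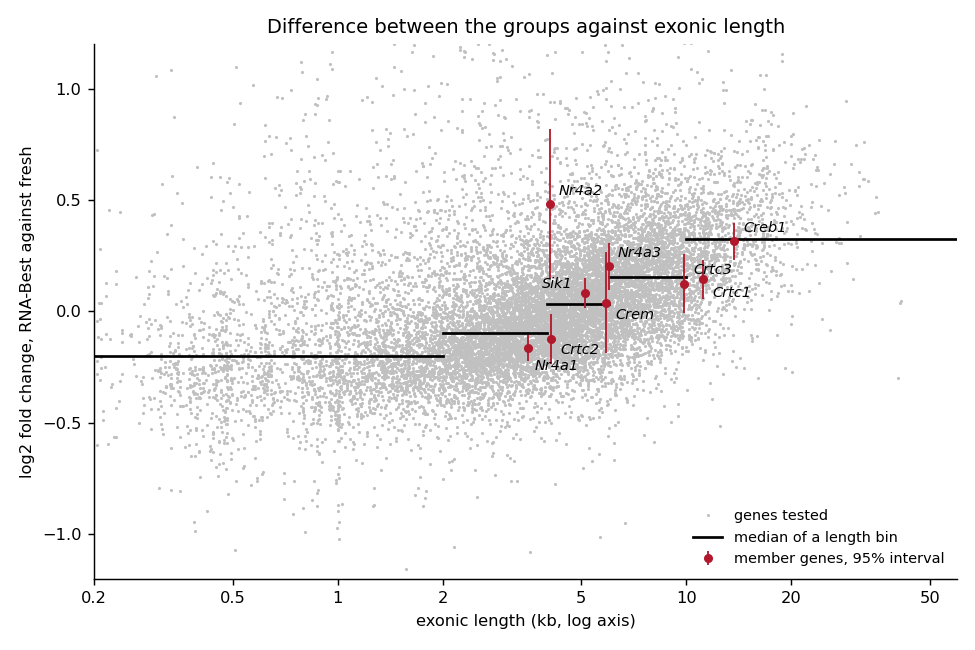
Log2 fold change, RNA-Best over fresh, against exonic length on a log axis for genes tested (grey points, 14677 genes with a length, of which 249 lie outside the axes), with the median of each length class as black lines and the 9 genes in red with 95% intervals. The medians rise with length, *Creb1* lies on its line, *Nr4a1* below and *Nr4a2* above theirs.

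Levels of different genes were compared per kilobase of exon. In fresh libraries the order was *Nr4a1* (455 ± 2.98 CPM per kb, SD, n = 3), *Sik1* (34.2 ± 0.495), *Crtc2* (10.3 ± 0.565), *Nr4a3* (8.38 ± 0.235), *Crtc1* (5.88 ± 0.195), *Creb1* (4.85 ± 0.0360), *Crtc3* (2.40 ± 0.122), *Crem* (1.34 ± 0.0840) and *Nr4a2* (0.796 ± 0.0783). No neighbours in this order overlapped over the fresh libraries. RNA-Best libraries gave the same order, from *Nr4a1* at 409 ± 21.2 CPM per kb (SD, n = 3) to *Nr4a2* at 1.23 ± 0.340 CPM per kb (SD, n = 3). There the ranges of *Crtc2* and *Nr4a3* overlapped, as did those of *Crem* and *Nr4a2*, so those neighbours were not told apart by their spread. *Crtc2* was thus the most abundant of the CRTC transcripts per length, although *Crtc1* had the higher CPM.

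**Figure D4:**
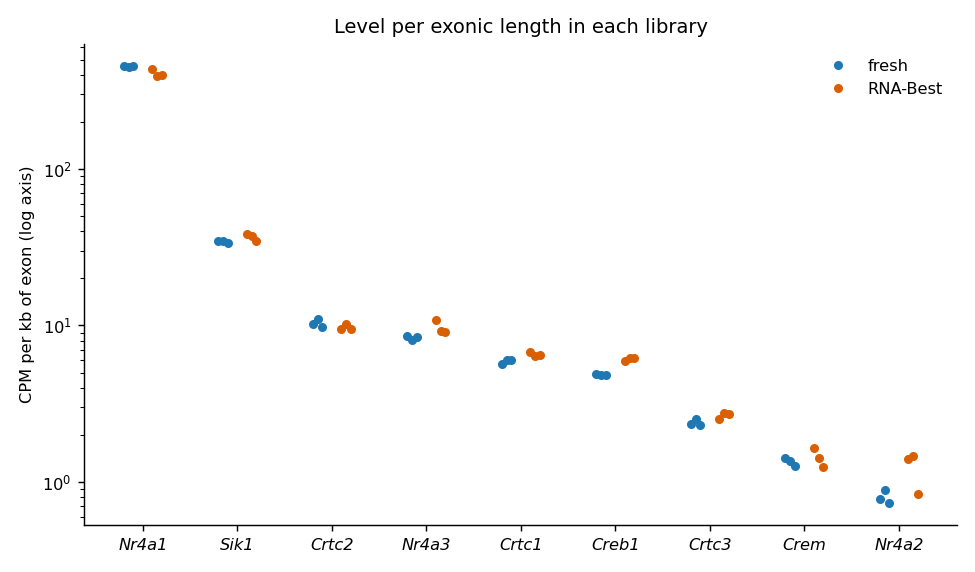
Level per kilobase of exon (CPM per kb, log axis) of the 9 genes in the 3 fresh and 3 RNA-Best libraries, one point per library, ordered by the fresh mean. *Nr4a1*, at a fresh mean of 455, stands far above *Sik1*, at 34.2, and *Nr4a2* has the lowest mean in both groups, with RNA-Best points that overlap those of *Crem*.

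RNA-Best replicate 1 was the highest of its group in 5 of the 9 genes (*Nr4a1*, *Nr4a3*, *Crem*, *Sik1* and *Crtc1*), against 34.4% of all genes tested. It was the lowest in 3 of the 9, against 31.8% of all genes tested. The same library was highest in 7 of 11 tested early genes known to carry CREs (*Fos*, *Fosb*, *Egr1*, *Gem*, *Rgs2*, *Arc* and *Vgf*). Without it, 2 of the 9 genes passed (*Nr4a1* and *Creb1*), against 43.3% of all genes tested, and without RNA-Best replicate 2, 4 did, against 45.7%. The spread of *Nr4a3* in the RNA-Best group, a coefficient of variation of 9.79%, was likewise above the 90th percentile of 9.07% among 5849 genes at 20 to 100 CPM, while in fresh it was 2.80%, near the median of 2.99%.

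Genes around this pathway were read from lists. Of 84 listed genes 73 were tested, and 40 passed, 24 higher and 16 lower in RNA-Best, a share of 54.8% against 50.8% of all genes tested. Their median log2 fold change was 0.06. With the length offset 34 passed, 10 higher and 24 lower, and that setting moved all genes tested from 3828 higher and 3651 lower to 2279 higher and 3735 lower. Exons of *Creb3*, *Sik2*, *Stk11*, *Adcy3*, *Gnas*, *Camk4*, *Rps6ka1* and *Junb* overlap a gene on the other strand, and those of *Ep300*, *Atf7*, *Prkar1b* and *Rps6ka4* one on the same strand, so the values of these genes below are uncertain.

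Among other CREB and ATF factors and their coactivators, 6 of 12 tested genes were higher, 2 lower and 4 not called, against 3 higher and 3 lower under the length offset. *Ep300*, a histone acetyltransferase recruited by phosphorylated CREB, rose from 93.5 ± 6.27 CPM (SD, n = 3) to 142 ± 2.40 CPM (SD, n = 3), higher by 0.58 on the log2 scale (adjusted p = 2.70e-14 from edgeR). Its close relative *Crebbp* was higher by 0.33 (adjusted p = 5.00e-09 from edgeR). *Atf7* was higher by 0.40 (adjusted p = 2.59e-08 from edgeR). *Creb3*, a factor anchored in the endoplasmic reticulum, fell by 0.39 on the log2 scale (adjusted p = 9.70e-09 from edgeR), and *Atf4*, of the integrated stress response, fell by 0.19 (adjusted p = 2.09e-07 from edgeR). *Atf1*, the closest relative of CREB, differed by 0.04 on that scale and did not pass (adjusted p = 0.499 from edgeR). With the length offset *Atf7* (0.12, adjusted p = 0.0510 from edgeR) and *Crebbp* (-0.02, adjusted p = 0.769 from edgeR) did not pass, and the differences of *Ep300* (0.22) and *Atf4* (-0.12) were smaller.

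Of 7 SIK kinases and members of their upstream kinase complex, 2 were higher, 1 was lower and 4 were not called, against 1 higher and 4 lower under the length offset. *Sik2* had 21.2, 23.8 and 19.0 CPM in fresh and 45.9, 46.6 and 42.3 CPM in RNA-Best libraries. The groups did not overlap, and the log2 fold change of *Sik2* was 1.003 (standard error 0.07, adjusted p = 7.22e-15 from edgeR), or 0.77 (adjusted p = 3.36e-11 from edgeR) under the length offset. The overlapping gene of *Sik2* is *Ppp2r1b*. *Sik3* was higher by 0.14 (adjusted p = 0.000749 from edgeR). *Stk11*, which encodes the upstream kinase LKB1, fell by 0.13 (adjusted p = 0.0178 from edgeR), and its partner *Cab39* had 0.06 (adjusted p = 0.107 from edgeR). *Sik3* turned with the length offset and was called lower (-0.10, adjusted p = 0.0157 from edgeR), as was *Cab39* (-0.09, adjusted p = 0.0152 from edgeR), and *Stk11* did not pass with the GC offset (-0.02, adjusted p = 0.783 from edgeR).

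In the cAMP and protein kinase A list, 9 of 18 tested genes were higher, 3 lower and 6 not called, against 4 higher and 3 lower under the length offset. The adenylyl cyclase genes *Adcy9* and *Adcy3* were higher by 0.83 (adjusted p = 1.82e-07 from edgeR) and 0.80 (adjusted p = 0.00474 from edgeR), from 5.35 and 1.18 CPM in fresh libraries. *Gnas*, which encodes the stimulatory G protein was higher by 0.44 (adjusted p = 2.61e-05 from edgeR), but did not pass once length was offset (0.15, adjusted p = 0.127 from edgeR). *Prkaca*, the catalytic subunit of protein kinase A, fell by 0.15 (adjusted p = 0.000266 from edgeR), its inhibitor *Pkig* by 0.21 and its regulatory subunit *Prkar1b* by 0.13 (adjusted p = 0.0498 from edgeR). *Adcy5*, the most abundant gene of the list that did not pass, had 0.03 (adjusted p = 0.418 from edgeR), and its call was lower under the length offset (-0.13, adjusted p = 0.000110 from edgeR) but higher under the GC offset (0.14, adjusted p = 2.33e-05 from edgeR). *Prkar1b* passed with neither offset, and *Prkaca* was -0.08 with the length and -0.09 with the GC offset.

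In the calcineurin and calmodulin kinase list, 2 of 16 tested genes were higher, 4 lower and 10 not called, against 1 higher and 8 lower under the length offset and 3 higher and 6 lower under the GC offset. *Camk4*, a nuclear CREB kinase, was higher by 0.23 (adjusted p = 0.000201 from edgeR), and so was *Camkk2*, which activates it, by 0.18 (adjusted p = 0.00157 from edgeR). The calcineurin inhibitor *Rcan1* fell by 0.21 (adjusted p = 0.000629 from edgeR), and *Calm2* and *Calm3*, both encoding calmodulin, fell by 0.18 and 0.17. *Camk2g* had 0.07 (adjusted p = 0.0550 from edgeR), and passed with the GC offset (0.08, adjusted p = 0.0274 from edgeR). With the length offset *Camkk2* turned to -0.10 and did not pass (adjusted p = 0.0635 from edgeR), and *Calm2* and *Calm3* were -0.07 and -0.10. With the GC offset *Calm2* and *Calm3* were -0.32 and -0.07. Among 6 RSK and MSK kinases, which phosphorylate CREB downstream of ERK, 3 were higher, 1 was lower and 2 were not called, against 1 higher and 2 lower under the length offset. *Rps6ka5* (MSK1) was higher by 0.42 (adjusted p = 8.00e-05 from edgeR), *Rps6ka3* (RSK2) by 0.32 (adjusted p = 1.38e-07 from edgeR) and *Rps6ka2* by 0.15, the last of which was -0.10 (adjusted p = 0.00626 from edgeR) with the length offset. *Rps6ka4* fell by 0.14 (adjusted p = 0.0112 from edgeR), and *Rps6ka1* had -0.04 (adjusted p = 0.453 from edgeR). With the length offset *Rps6ka5* did not pass (0.12, adjusted p = 0.273 from edgeR) and *Rps6ka3* was 0.12 (adjusted p = 0.0203 from edgeR). Under the GC offset *Rps6ka4* did not pass (-0.02, adjusted p = 0.804 from edgeR).

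Of 11 tested early target genes with known CREs, 2 were higher, 4 lower and 5 not called. *Per1*, a clock gene, was higher by 0.11 (adjusted p = 0.00502 from edgeR) and *Egr1* by 0.06 (adjusted p = 0.0475 from edgeR). *Vgf*, which encodes a secreted neuropeptide precursor, fell by 0.31 (adjusted p = 0.000271 from edgeR), *Junb* by 0.27 (adjusted p = 1.35e-07 from edgeR) and *Rgs2* by 0.20 (adjusted p = 0.00123 from edgeR). *Fos* had -0.04 (adjusted p = 0.389 from edgeR). With the length offset 0 of these genes were called higher by edgeR's quasi-likelihood test and 3 lower, with *Per1* at 0.02 (adjusted p = 0.641 from edgeR) and *Egr1* at 0.03 (adjusted p = 0.389 from edgeR). With no filter 0 of 13 were higher and 6 lower, where all genes had 3256 higher and 4381 lower (28.0% called). With the GC offset 3 were higher and 4 lower, where all genes had 3219 higher and 3883 lower, and *Per1* and *Egr1* were at 0.22 and 0.15 and *Junb* and *Vgf* at -0.13 and -0.18. Retinoid X receptors are dimer partners of NR4A1 and NR4A2. Of the 3 genes tested *Rxrb* was lower by 0.22 on the log2 scale, from 84.9 to 73.1 CPM (adjusted p = 1.65e-05 from edgeR), and *Rxra* had 0.01 (adjusted p = 0.875 from edgeR). *Rxrb* did not pass with the GC offset (-0.09, adjusted p = 0.0542 from edgeR).

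**Figure D5:**
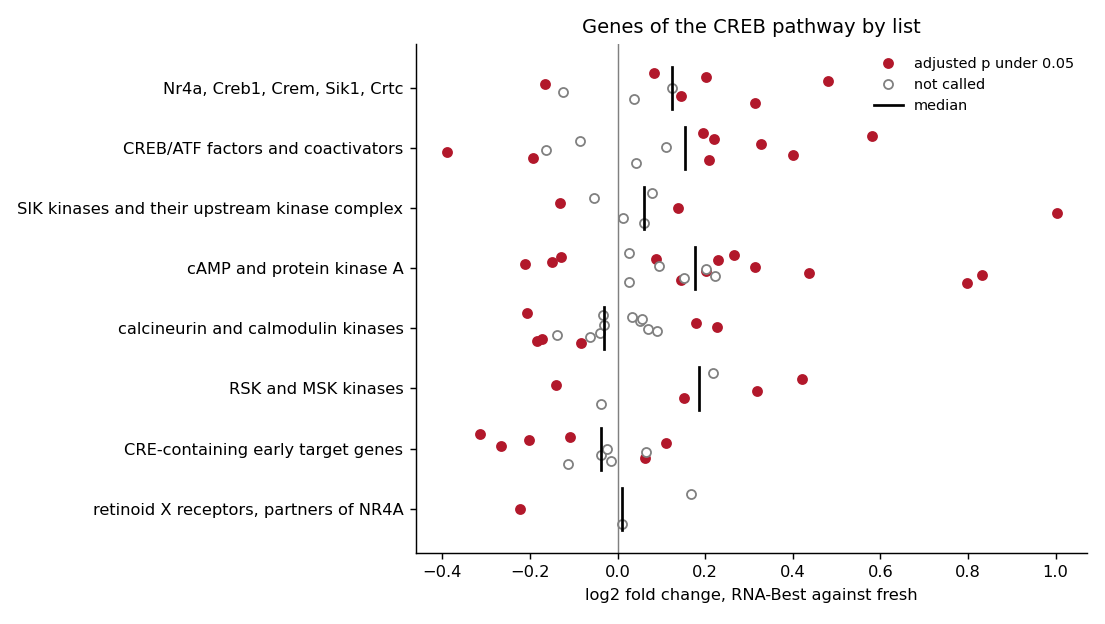
Log2 fold change, RNA-Best over fresh, of each tested gene in the 9 genes and the 7 surrounding lists (one line per list, one point per gene, filled where the adjusted p from edgeR was under 0.05), with the median of each list. Points of every list but the retinoid X receptors include called genes on both sides of 0, and *Sik2* lies farthest to the right at 1.003.

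The genes whose log2(CPM + 1) followed each receptor most closely over the 6 libraries were *Arpc4* and *Rhov* for *Nr4a1* (Pearson's r of 0.997 for both), *Cxcl10* and *Cluh* for *Nr4a2* (0.994 for both) and *Ugdh* and *Gm14091* for *Nr4a3* (0.988 and 0.986). Mean levels in fresh and RNA-Best libraries were low for *Cxcl10* (0.820 and 1.07 CPM) and *Gm14091* (1.79 and 3.41 CPM). *Cxcl10*, *Cluh* and *Ugdh* were not called (adjusted p = 0.534, 0.0607 and 0.292 from edgeR). An r over 0.9 was found in 1052, 340 and 318 of 14735 genes for *Nr4a1*, *Nr4a2* and *Nr4a3*. These values are a description, and the libraries share their group and depth.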

How the data were processed

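RNA-seq of GnRH-treated LβT2 cells was used, 3 fresh and 3 RNA-Best libraries. Per the submitters' processing notes and the methods, the authors aligned reads with STAR 2.5.1b to mm10 (GRCm38) and counted them with featureCounts 1.5.0-p1. What the authors deposited are estimated counts for each gene with no scaling. In each library 9.36% to 16.3% of them lay over 0.001 from a whole number, among them values of *Nr4a1*, *Creb1*, *Crem*, *Sik1* and *Crtc3*, for which no cause is given in the sources used here, so these values are uncertain. The library columns were matched to samples by name, and 0 were unmatched.

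Counts were rounded and tested in R 4.3.3 with edgeR 4.0.16 (quasi-likelihood, TMM, filterByExpr with minimum count 10), and p-values were adjusted over all genes tested. CPM used the total count of each library. Limma 3.58.1 (voom) and DESeq2 1.42.0 (Wald test, size factors) served as alternatives, beside no filter, a filter of 1 CPM, a replicate block, offsets for length or GC content (loess, span 0.5), thinning to the smallest library, glmTreat at 1.2-fold and single libraries left out. The fit was tested on simulated data. Positions and lengths (union of exons) came from GENCODE M21, a later release than the authors used on the same assembly, for 46488 of 47069 genes, and GC content from the longest transcript. The common biological coefficient of variation was 2.14%. Depth was 4909418 to 47438746 counts, a count of 0 allows 3 counts, and such limits cover counting error only.

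The 9 genes and the lists were chosen with earlier results of these data known. Named are the 9 genes and, in each list, up to 3 higher and 3 lower genes with the largest change among called genes whose groups do not overlap, the most expressed gene not called, the markers, and the 2 genes most correlated with each receptor. The single-cell and qPCR data of the study were not used here.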

Additional observations from a re-analysis of the deposited data

How the results depend on the processing

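The number of the 9 genes called was 6, and 3 with DESeq2's Wald test (35.5% of the 16072 genes it gave an adjusted p), 3 with replicate block and length offset (40.4% of all genes tested) and 3 after thinning (40.3%). With edgeR's glmTreat at 1.2-fold it was 0, with 2 at an unadjusted p under 0.05 (*Nr4a2* and *Creb1*), and 7 of the pathway genes and 1693 of all genes (11.5%) passed, against 40 and 7479. Leaving out single libraries gave 2 to 6 of the 9 genes and 35 to 39 pathway genes, with 42.4% to 49.3% of all genes. Same-numbered libraries shared no deviation (correlations of -0.00736, 0.0102 and -0.00784 across genes, and 0 of 6 libraries correlated best with their own number), and with the replicate block 6 of the 9 genes, 41 pathway genes and 50.7% of all genes passed. Signs turned for *Creb1* with the length offset (-0.0333) and with block and length offset (-0.0458), for *Crtc1* in the same settings (-0.14 and -0.15), and for *Crtc3* in these (-0.12 and -0.11) and after thinning (-0.0629). *Crem* turned with no filter (-0.00944), which moved the median of all genes to -0.06, with the length (-0.0624) and GC offset (-0.0915), with block and length offset (-0.0145) and without RNA-Best replicate 1, and ranged from -0.0877 to 0.182 with single libraries left out. *Nr4a1*, *Nr4a2*, *Nr4a3*, *Sik1* and *Crtc2* kept their sign under each of the 17 alternatives. The cause was not tested. With the longest transcript as length, 7 of 9 ranks of the per-length order held in fresh libraries and 7 of 9 in the preserved ones. The family shares in fresh libraries were then 98.5%, 0.143% and 1.38% for *Nr4a1*, *Nr4a2* and *Nr4a3*, and in RNA-Best 98.0% and 1.77% for *Nr4a1* and *Nr4a3*. Without division by length they were 96.8%, 0.196% and 3.04%, and 95.8% and 3.87%. Of the 9 genes, *Nr4a2* and *Crem* had the lowest counts.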
